A study of Caenorhabditis elegans with 24 samples.

Results

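The X chromosome of Caenorhabditis elegans carried 660 of the 7803 protein-coding genes whose antisense small RNAs were followed here. They were the X-linked genes among the protein-coding genes with 10 or more normalized counts in at least 2 of 24 libraries, with positions from Ensembl (WBcel235), and no difference between groups was used to choose them. Of the 2663 X-linked protein-coding genes listed, 24.8% passed, against 42.2% of the 16942 autosomal ones. The X genes pccb-1, mtp-18 and npr-6 passed most narrowly, each with a second-highest value of 10.1, and crb-1, F39F10.3 and nas-39 missed most narrowly, each at 9.98. Only 8 members would not have passed without the wild-type libraries, and 236 overlapped another gene, so that reads there can belong to either.

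Small RNAs of whole young adults were sequenced in 12 groups of 2 biological replicates. The groups were meg-3 meg-4 double mutants (JH3225 in the sample titles), triple mutants that carry a hrde-1 mutation as well (YY1512), descendants of a meg-3/4 outcross that were again of wild-type genotype, and the wild-type control N2. Descendants were taken in every generation between F3 and F7, and later at F10, F15, at F20 and at F25. The comparison asks what the loss of germ granule proteins does to the small RNAs and how they return once the genes are restored. Nothing says that replicates came from separate cultures, so p-values cover the spread between the samples at hand. Which bases the meg-3, meg-4 and hrde-1 mutations remove was not stated in the labels.

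In C. elegans, RNA-dependent RNA polymerases copy small interfering RNAs (siRNAs) from messenger RNA, so these siRNAs are antisense to the gene. Germ cells concentrate this machinery in germ granules at the nuclear surface. MEG-3 and MEG-4 are disordered proteins on which embryonic granules are built. HRDE-1, an Argonaute of germ cell nuclei, binds inherited siRNAs. The X chromosome has a regime of its own in this tissue: its genes are largely silent in mitotic and early meiotic germ cells under the control of chromatin regulators such as the MES proteins, and many become active only late in oogenesis. Hermaphrodites carry a pair of X chromosomes, males a single one, and X signal elements count them to set sex through xol-1.

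X-linked genes carried fewer siRNAs than autosomal ones. Their median wild-type level was 19.8 normalized counts, against 65.4 on the autosomes. Per kilobase of exon the medians were 10.6 for X genes and 45.0 for autosomal genes. To set X genes beside genes of like abundance, each was given the 10 autosomal genes nearest in wild-type level, 6600 pairs with 3568 different genes, whose median was 20.1 normalized counts. A gene is called higher or lower at an adjusted p under 0.05 in limma's test on log2(normalized count + 5), adjusted over all 8869 features kept. The added 5 makes changes of weakly covered genes look smaller than they were. Genes of one chromosome are not replicates, so X and autosomal shares are set side by side as a description, with no test. Libraries held 392785 to 3420345 recovered reads, and 1 read was worth 4.99 and 5.47 normalized counts in F4 replicate 2 and F10 replicate 1, against 0.51 to 1.86 in the other 22.

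The mutated genes themselves checked the labels. The meg-3 gene (chrX:1986469-1989607, minus strand) had 7.74 and 7.86 normalized counts in meg-3 meg-4 mutants, 14.4 and 4.73 in the triple mutants, 74.2 and 58.4 in F3 descendants, and 42.8 and 64.2 in wild type. The meg-4 gene (chrX:1682954-1686419, plus strand) had 12.2 and 3.93 in meg-3 meg-4 mutants, 0.90 and 4.73 in the triple mutants, 71.1 and 80.5 in F3, and 55.0 and 74.2 in wild type. Both fell in the mutants without overlap and were back at or above wild-type values by F3. The hrde-1 gene, on chromosome III, had 628.5 and 599.9 in the triple mutants, against 1164 and 1115 in meg-3 meg-4 mutants and 1351 and 1360 in wild type. These are small RNAs against each gene and not its messenger RNA.

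In meg-3 meg-4 mutants, 182 of the 660 X genes (27.6%) were lower than in wild type and 23 (3.48%) were higher. Over all features the shares were 17.6% lower and 8.28% higher, among the matched autosomal genes 13.5% and 6.05%, and on single autosomes between 16.0% (III) and 18.5% (V) were lower. The median log2 change was -0.26 for X genes and -0.01 for matched genes. With quantile normalization, which moved the median change of all features to 0.135, the X split was 150 lower and 50 higher. With equal library totals, which moved that median to -0.328, it was 259 lower and 10 higher. In whole animals, fewer germ cells and less siRNA per germ cell cannot be told apart.

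The triple mutants lay as low. In them 162 X genes (24.5%) were lower than in wild type and 11 (1.67%) higher, against 12.4% and 5.83% of all features and 7.94% and 5.71% of matched genes. The median log2 level of X genes, less that of the matched genes and set to the wild-type mean, was -0.27 ± 0.058 in meg-3 meg-4 mutants, -0.25 ± 0.003 in triple mutants and 0 ± 0.042 in wild type (SD, n = 2 each). All 4 mutant libraries lay below both wild-type ones. The X share of the normalized counts of the kept protein-coding genes was 4.18% and 4.21% in meg-3 meg-4 mutants, 3.78% and 3.80% in triple mutants, and 5.59% and 5.85% in wild type. Without the 10 highest X genes the share was 2.14% and 2.15% in meg-3 meg-4 mutants, 2.39% and 2.41% in triple mutants, and 3.83% and 4.01% in wild type.

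**Figure D1:**
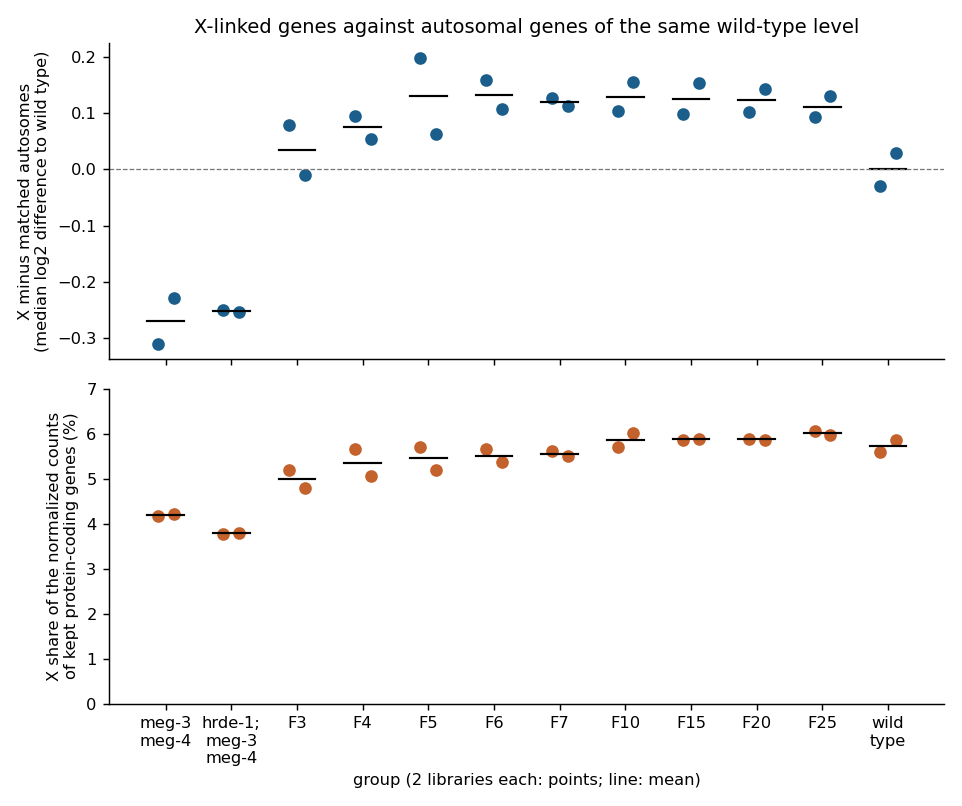
Upper panel, median log2 level of X-linked genes less that of level-matched autosomal genes, relative to the wild-type mean; lower panel, X share of the normalized counts of kept protein-coding genes in percent (points are libraries, short lines group means, 2 libraries a group). Both kinds of mutant lie between -0.31 and -0.23 in the upper panel, below both wild-type libraries, and hold 3.78% to 4.21% in the lower one.

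Among X genes, the share that lost siRNAs was higher at wild-type levels of 30 to 1000 than below. Of X genes at 10 to 30 normalized counts in wild type, 15.7% were lower in meg-3 meg-4 mutants, close to the 16.9% of autosomal genes in that class. At 30 to 100 it was 71 of 150 X genes (47.3%), against 18.5% of autosomal genes. At 100 to 300 it was 46 of 59 (78%), against 20.0%, with a median log2 change of -1.62 for X genes and 0.01 for autosomal genes. At 300 to 1000 it was 22 of 33 (66.7%), against 23.7%. The triple mutants showed the same steps, with 79.7% of X genes and 12.5% of autosomal genes lower at 100 to 300. Because classes cut by the wild-type level share libraries with the comparison, they were also cut by the mean of all 24 libraries, which gave 66.1% of X genes and 14.8% of autosomal genes at 100 to 300. Under the other settings tried, X genes of that class ranged from 74.6% to 88.1% lower and autosomal genes from 15.9% to 36.9%. These classes were made after the data had been seen.

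**Figure D2:**
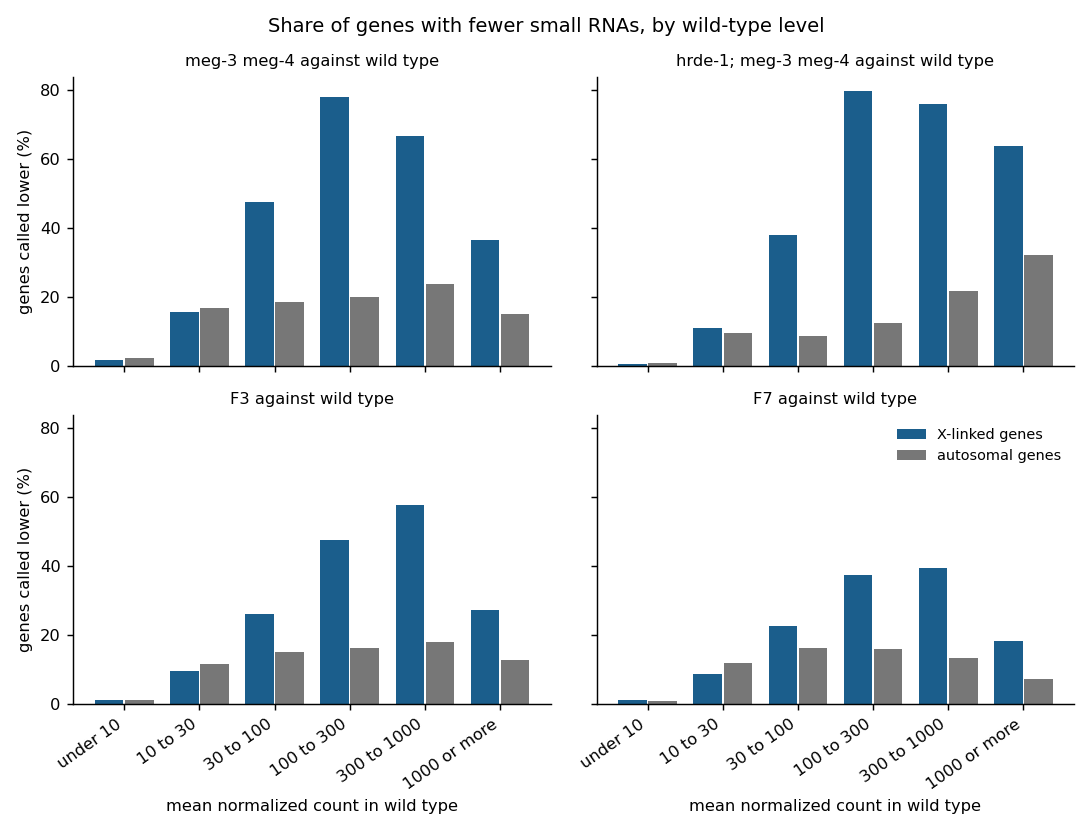
Percent of X-linked (blue) and of autosomal (grey) protein-coding genes called lower than wild type, by wild-type level in normalized counts, in meg-3 meg-4 mutants, triple mutants and descendants at F3 and F7. In meg-3 meg-4 mutants 78% of X genes at 100 to 300 were lower, against 20.0% of autosomal genes.

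The most abundant X genes were mixed. Of the 11 at 1000 or more normalized counts in wild type, 4 were lower and 3 higher in meg-3 meg-4 mutants. Over all features 17.6% were lower and 8.28% higher. The gene his-24, a linker histone, had 5792 and 6133 in meg-3 meg-4 mutants, 2934 and 2762 in triple mutants, and 4823 and 4977 in wild type. It was not called in the double mutants (adjusted p = 0.224, limma) and was called lower in the triple against the double mutants (log2 change -1.06 ± 0.16 SE, adjusted p = 6.06e-05).

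The largest losses in meg-3 meg-4 mutants brought single X genes close to no siRNAs. The neuropeptide receptor gene npr-11 (chrX:1251815-1255647, minus strand) had 1.11 and 3.93 normalized counts in meg-3 meg-4 mutants, 78.3 and 56.8 in triple mutants, 4.33 and 3.95 at F3, 90.9 and 48.2 at F25, and 118.1 and 92.8 in wild type. The double mutants and F3 stayed under 5 normalized counts, and the triple mutants stood between them and wild type. Its log2 change in meg-3 meg-4 mutants was -3.89 ± 0.34 (SE, limma adjusted p = 3.62e-08). The gene unc-10 (chrX:7272317-7280322, minus strand), which encodes the active-zone protein RIM of nerve terminals and overlaps another gene, had 38.7 and 32.4 in meg-3 meg-4 mutants, 278.3 and 263.3 in triple mutants, 25.98 and 56.9 at F3, 360.4 and 186.8 at F25, and 356.0 and 409.3 in wild type. It showed the same order of groups, with a log2 change of -3.26 ± 0.32 (SE, limma adjusted p = 1.61e-07). The gene inso-1 (chrX:1300149-1309504, plus strand) had 44.3 and 47.1 in meg-3 meg-4 mutants, 253.0 and 241.2 in triple mutants, 68.0 and 92.4 at F3, 436.8 and 276.4 at F25, and 450.9 and 495.1 in wild type.

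Other genes among the 10 with the largest losses were F34H10.3, atrn-1, R04A9.7, jmjd-3.3, a JmjC-domain gene, glit-1, a gene of the cholinesterase-like family, and clc-7, a claudin-like gene, besides xol-1. All 10 were lower in both meg-3 meg-4 libraries than in both wild-type libraries, by rule, and all 10 kept their call under every alternative run. Of these 10, glit-1 was the one with less siRNA in the triple than in the double mutants. It had 136.1 and 126.7 in meg-3 meg-4 mutants, 20.7 and 15.0 in triple mutants, 603.1 and 493.5 at F3, 1394 and 1562 at F10, 1007 and 1290 at F25, and 815.5 and 830.3 in wild type.

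Few X genes gained siRNAs in meg-3 meg-4 mutants, and most of those calls were fragile. F28H6.8 had 83.0 and 91.3 normalized counts in meg-3 meg-4 mutants, 67.5 and 69.4 in triple mutants, 63.0 and 42.3 at F25, and 12.2 and 16.4 in wild type (log2 change in meg-3 meg-4 mutants 2.27 ± 0.23 SE, limma adjusted p = 2.38e-07). Its libraries stayed above wild type at F25 too. F59C12.4 had 2002 and 1939 in meg-3 meg-4 mutants, 956.3 and 992.5 in triple mutants, and 971.8 and 1149 in wild type, so that the triple mutants were back at the wild-type level. Of the 10 named X genes that were higher, F28H6.8 alone kept its call under every alternative, and 9 lost it under at least 1. Without meg-3 meg-4 replicate 1 the count of higher X genes was 13, and without wild-type replicate 2 it was 15.

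Of the 6 X signal elements and X-linked sex determination genes, 3 were lower in meg-3 meg-4 mutants, where 17.6% of all features and 27.6% of X genes were. The median log2 change over the 6 was -0.39. The gene xol-1 (chrX:8041313-8044409, plus strand), the switch that sets male fate when on, had 29.9 and 27.5 normalized counts in meg-3 meg-4 mutants, 109.9 and 92.2 in triple mutants, 28.5 and 33.2 at F3, 196.2 and 118.3 at F25, and 273.8 and 300.1 in wild type. It fell nearly as far as unc-10 (log2 change -3.12 ± 0.29 SE, limma adjusted p = 1.05e-07) and was the only one of the 6 still lower at F3. The X signal element ceh-39 (chrX:1853874-1856172, minus strand), a homeodomain gene, had 68.6 and 82.5 in meg-3 meg-4 mutants, 36.9 and 42.6 in triple mutants, 206.0 and 180.0 at F3, and 165.0 and 150.1 in wild type. Unlike xol-1 it was at the wild-type level or above by F3 and lowest in the triple mutants. The third was sdc-1, which acts in sex determination and dosage compensation, with 33.2 and 44.2 in meg-3 meg-4 mutants and 67.7 and 71.2 in wild type, a call lost without meg-3 meg-4 replicate 1 (limma adjusted p = 0.0672). The X signal elements sex-1 and fox-1, and sdc-2, were not called, with 12.8 to 19.9, 9.82 to 37.6 and 18.7 to 26.6 normalized counts in meg-3 meg-4 mutants, against 8.10 to 12.9, 7.59 to 14.5 and 22.2 to 22.6 in wild type.

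Of 16 kept autosomal genes of sex determination and dosage compensation, 1 was lower and 3 were higher in meg-3 meg-4 mutants, where 17.6% of all features were lower and 8.28% higher. Their median log2 change was -0.0016. At F4, 4 were lower and 1 was higher, against 15.2% and 6.43% of all features. The condensin gene dpy-27, whose product binds both X chromosomes in somatic cells, was among the higher ones, with 132.7 and 131.6 normalized counts in meg-3 meg-4 mutants and 35.9 and 45.5 in wild type. Of 16 chromatin regulators that act on the germline X, such as the mes genes, 1 was lower, the X-linked synMuv gene lin-15B, and 2 were higher. The gene lin-15B had 157.1 and 143.4 in meg-3 meg-4 mutants, 76.5 and 100.9 in triple mutants, 227.6 and 181.6 at F3, and 233.8 and 289.6 in wild type.

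Of 11 kept X-linked genes of germ cells and small RNA pathways, 6 were lower in meg-3 meg-4 mutants, where 17.6% of all features and 27.6% of X genes were. These 6 were not called at F3, where 13.5% of all features were lower: meg-3, meg-4, puf-9, a Pumilio-family RNA-binding gene, lin-15B, and alg-1 and ain-1, which act with microRNAs. The gene puf-9 had 73.0 and 71.7 normalized counts in meg-3 meg-4 mutants, 19.8 and 21.3 in triple mutants, 183.1 and 150.8 at F3, and 155.1 and 152.4 in wild type. The call of alg-1, with 12.2 and 7.86 in meg-3 meg-4 mutants and 33.0 and 22.2 in wild type, was lost under 7 of the 13 alternatives run. It was lost when any single library of either group was left out, and under other settings too. The list holds meg-3 and meg-4 themselves, mutated in these animals and restored by the outcross, which count towards the 6. A lower call came back for lin-15B at F4 and for ain-1 at F10, where meg-4 and puf-9 were higher.

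Tissue genes of the soma were mostly below the filter. Of 29 X-linked neuron genes, 9 were kept and 2 of them, unc-10 and syd-2 (liprin), were lower in meg-3 meg-4 mutants. Over all features 17.6% were lower there, and of X genes 27.6%. The call of syd-2 was lost without meg-3 meg-4 replicate 2 (limma adjusted p = 0.124) or wild-type replicate 2 (0.126). Of 14 muscle genes 1 was kept and not called. Of 8 intestine and yolk genes 4 were kept and 1, the yolk gene vit-3, was higher, where 8.28% of all features and 3.48% of X genes were. That call was lost under 5 of the 13 alternatives run. Among these were the fits without meg-3 meg-4 replicate 1 or 2 or wild-type replicate 1. None of 27 collagen, 34 neuropeptide, 14 cytochrome P450, UGT and GST, and 2 let- genes was kept. Nuclear hormone receptors are ligand-activated transcription factors, a family much enlarged in worms. Of 23 nhr- genes on the X, 6 were kept, 5 of these were lower in meg-3 meg-4 mutants (17.6% of all features, 27.6% of X genes), and 5 were lower at F3 (13.5% of all features, 17.1% of X genes). The receptor gene nhr-1 had 169.3 and 180.7 normalized counts in meg-3 meg-4 mutants, 275.6 and 305.9 in triple mutants, 199.2 and 243.2 at F3, 577.2 and 508.8 at F25, and 576.5 and 797.6 in wild type. The receptor gene nhr-3 had 35.4 and 22.6 in meg-3 meg-4 mutants, 170.2 and 138.8 in triple mutants, 21.03 and 30.8 at F3, 88.8 and 87.9 at F25, and 103.0 and 92.8 in wild type. Of the other families, 1 of 4 kept homeobox genes (ceh-39), 1 of 2 potassium channel genes (irk-3), 1 of 2 ligand-gated channel genes (lgc-40), 1 of 5 unc- genes (unc-10) and 1 of 3 lin- genes (lin-15B) were lower in meg-3 meg-4 mutants, against 17.6% of all features and 27.6% of X genes. The genes ceh-39, unc-10 and lin-15B are counted in the lists above too.

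In the descendants the median X gene was back at the wild-type level by F3, while 113 X genes were still lower. At F3 these 113 made up 17.1% of X genes, and 29 (4.39%) were higher than in wild type, against 13.5% and 4.1% of all features and 9.91% and 3.3% of matched genes. At F4, 118 X genes (17.9%) were lower and 60 (9.09%) higher, against 15.2% and 6.43% of all features and 12.9% and 5.26% of matched genes. At F5 it was 101 (15.3%) and 47 (7.12%), against 13.6% and 5.71% of all features and 10.2% and 4.62% of matched genes. At F6 it was 96 (14.5%) and 43 (6.52%), against 12.4% and 3.99% of all features and 9.17% and 2.955% of matched genes. At F7, 93 X genes (14.1%) were lower and 48 (7.27%) higher, against 12.6% and 4.54% of all features and 10.1% and 3.0% of matched genes. At F10 it was 94 lower (14.2%) and 75 higher (11.4%), against 14.8% and 6.44% of all features and 12.6% and 4.955% of matched genes. At F15 it was 46 lower (6.97%) and 25 higher (3.79%), against 5.06% and 2.69% of all features and 2.92% and 2.11% of matched genes. At F20 it was 13 lower (1.97%) and 16 higher (2.42%), against 1.42% and 0.981% of all features and 0.530% and 0.803% of matched genes. At F25 no X gene was lower and 5 (0.758%) were higher by limma, against 0.417% and 0.631% of all features and 0.182% and 0.530% of matched genes. At an unadjusted p under 0.05 in limma, 28 of the 660 X genes were lower and 44 higher at F25. Of the 7143 autosomal genes, 364 were lower and 249 higher at that threshold. For X genes at F25, edgeR called 4 lower and 16 higher, and DESeq2 1 lower and 8 higher. Counts of higher X genes also depended on scaling and on single libraries. With quantile normalization the F3 split was 102 lower and 47 higher, and with equal library totals the F7 split was 112 lower and 30 higher. Leaving out 1 library of either group left 13 to 20 higher at F3 and 22 to 30 at F7.

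The X median less the matched median was 0.035 ± 0.062 at F3, 0.13 ± 0.095 at F5, 0.12 ± 0.010 at F7, 0.13 ± 0.037 at F10 and 0.11 ± 0.026 at F25 (SD, n = 2 each), against 0 ± 0.042 in wild type. Among genes with 50 or more in 2 libraries it was -0.13 at F3, 0.062 at F5, 0.050 at F6 and 0.078 at F10, so the direction at F3 depended on which levels were included.

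The 182 X genes that were lower in meg-3 meg-4 mutants came back slowly on the median. Their median level was 27.2% of wild type in meg-3 meg-4 mutants, 48.9% in triple mutants, 49.0% at F3, 50.5% at F7, 56.2% at F10, 65.7% at F15, 76.0% at F20 and 90.8% at F25. The first value is fixed by the choice of these genes. The median hardly changed over the first descendants and climbed after F10. Of the 182, 99 (54.4%) were still lower than wild type at F3, 86 (47.3%) at F7 and 81 (44.5%) at F10. At F15 it was 44 (24.2%), at F20 13 (7.14%) and at F25 0. At an unadjusted p under 0.05 in limma, 23 of the 182 were lower at F25 and 14 higher. Over all 660 X genes these counts were 28 and 44. Of the 1226 autosomal genes lower in meg-3 meg-4 mutants, 62.3% were still lower at F3, 57.0% at F7 and 54.5% at F10. At F15 it was 25.45%, at F20 7.67% and at F25 2.20%. The median level of these autosomal genes also rose slowly, so the slow return was not particular to the X. It was 46.7% of wild type at F3, 50.2% at F7 and 54.3% at F10. Later it was 65.2% at F15, 70.5% at F20 and 83.6% at F25. Of the 182, 20 (10.99%) were called higher than wild type at F7 and 25 (13.7%) at F10, against 2.28% and 3.34% of the autosomal genes. All these comparisons share the wild-type libraries.

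The slope of log2 level over generation, fitted in the 18 descendant libraries without wild type, rose in 132 X genes (20.0%) and fell in 40 (6.06%), against 13.8% and 7.51% of all features and 11.4% and 5.41% of matched genes. With quantile normalization the split was 116 rising and 70 falling, and without F25 replicate 1 there were 23 falling. Of the 182 lost X genes, 104 (57.1%) rose and 13 (7.14%) fell. Among lost autosomal genes a near share rose, 57.7%, and a smaller one fell, 2.94%. The fit takes the generations as independent samples, and if one was bred from another its p-values are too small. Deviations of same-numbered libraries from their group means correlated at 0.252 to 0.408 among F3, F5, F6 and F7. The JmjC-domain gene jmjd-3.2 (chrX:14448210-14453567, plus strand, overlapping another gene) had the steepest rise, 0.145 ± 0.011 log2 units per generation (SE, limma adjusted p = 1.77e-09). It had 48.3 and 45.0 normalized counts at F3, 547.3 and 261.2 at F25, and 250.0 and 216.0 in wild type. The other steepest rises were those of F34H10.3, unc-10, F39F10.4 and inso-1.

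**Figure D3:**
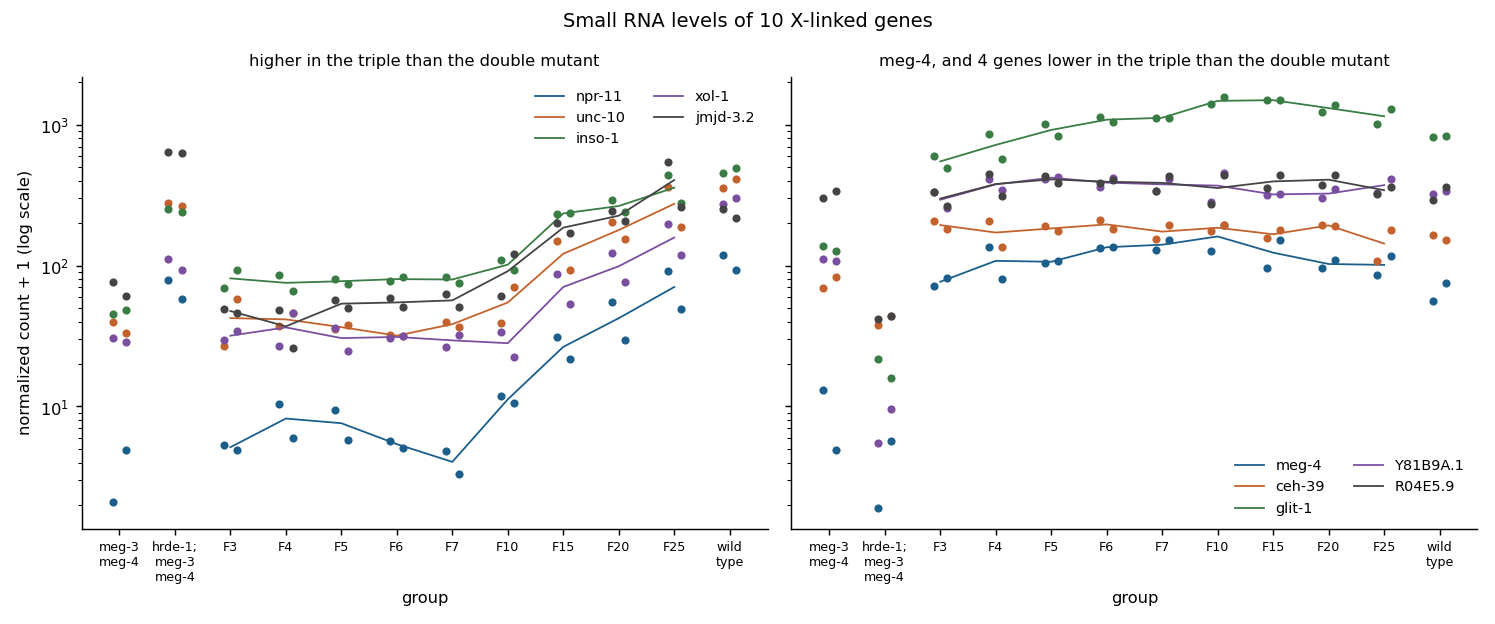
Normalized count + 1 (log axis) by group for 10 X-linked genes; points are libraries and lines join the means of the descendant groups. In the left panel npr-11, unc-10, inso-1, xol-1 and jmjd-3.2 stay low until F10 and then climb, and in the right panel meg-4, ceh-39, glit-1, Y81B9A.1 and R04E5.9 are lower in the triple mutants than in any descendant group. R04E5.9 lies at the wild-type level in the meg-3 meg-4 mutants too.

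The 182 lost X genes were split by their level at F3, after the data had been seen, into a slow and a quick set and 29 genes in neither. The 99 genes still lower at F3 had medians of 24.1% of wild type in meg-3 meg-4 mutants, 26.9% at F3, 31.7% at F7, 38.2% at F10 and 78.8% at F25, where replicates 1 and 2 differed, at 92.4% and 65.8%. Of them 90 rose over the generations, which the choice of genes low at F3 favours, since the F3 libraries enter the slope. The slow set includes npr-11, unc-10, inso-1, xol-1, nhr-1, nhr-3, jmjd-3.2 and jmjd-3.3. Another 54 were not called lower at F3 and had 75% or more of the wild-type level there. Their medians were 41.9% in meg-3 meg-4 mutants, 107% at F3, 127% at F7, 141% at F10 and 111% at F25, and the F3 level of both sets is fixed by the choice. The other 29 were not called lower at F3 but had under 75% of the wild-type level, with medians of 26.96% in meg-3 meg-4 mutants, 54.2% at F3, 58.9% at F10 and 94.5% at F25. Among the quick genes were meg-3, meg-4, ceh-39, sdc-1, puf-9, pks-1, a polyketide synthase gene, and Y81B9A.1.

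**Figure D4:**
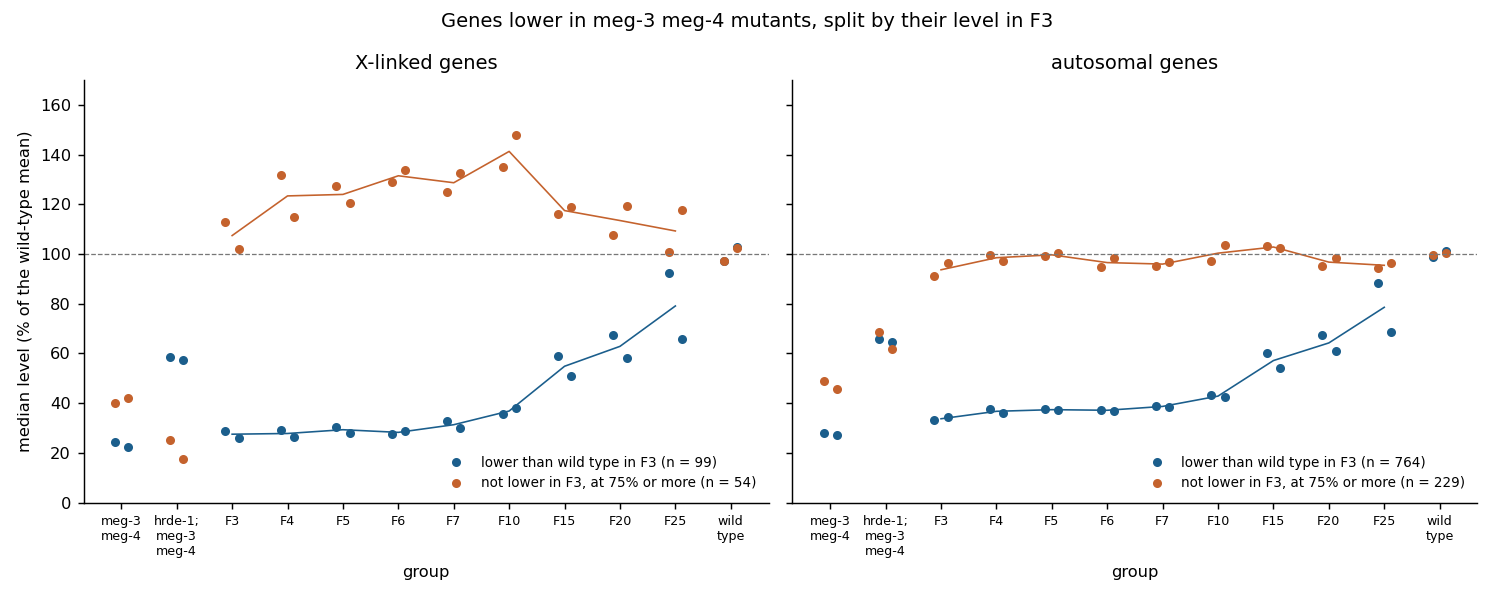
Median level in percent of the wild-type mean of genes lower in meg-3 meg-4 mutants, split by their level at F3, for X-linked genes (left) and autosomal genes (right); points are libraries and lines join descendant group means. The 99 slow X genes stay near 30% until F7 and the 54 quick ones exceed 100% in every descendant library, while in triple mutants the quick X genes lie at 25.2% and 17.7%, below the slow ones.

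In triple against double mutants the slow X genes were called higher more often than lower, and the quick ones lower more often than higher. Across all 660 X genes, 86 (13.0%) were lower and 87 (13.2%) higher in triple than in meg-3 meg-4 mutants, against 8.63% and 10.6% of all features and 5.47% and 9.41% of matched genes. With equal library totals the X split was 56 lower and 116 higher. Among the 99 slow X genes, 60 (60.6%) were higher in the triple mutants and 3 lower, and among the 764 slow autosomal genes 48.2% were higher and 3.93% lower. Among the 54 quick X genes, 29 (53.7%) were lower in the triple than in the double mutants and 2 were higher, whereas among 229 quick autosomal genes 15.3% were lower and 29.7% higher. Quick X genes had a median of 21.2% of wild type in triple mutants (25.2% and 17.7% in the libraries). The median level of slow X genes there was 56.7% of wild type, and that of quick autosomal genes 64.6%. In triple mutants 50 of the 54 quick X genes (92.6%) were called lower than wild type. The share was 50.5% of slow X genes, 50.7% of quick autosomal genes and 12.4% of all features. The comparison of triple with double mutants and that of F3 with wild type share no library, but each shares 2 with the comparison that chose the lost genes. The 60.6% ranged from 58.5% (edgeR) to 67.1% (filter of 50) under the other settings and from 49.0% (without triple mutant replicate 2) to 69.9% when single libraries were left out. The 53.7% ranged from 24.8% (equal library totals, autosomal genes 6.1%) to 70.7% (quantile normalization, autosomal genes 17.6%), and from 42.0% to 62.2% when single libraries were left out.

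**Figure D5:**
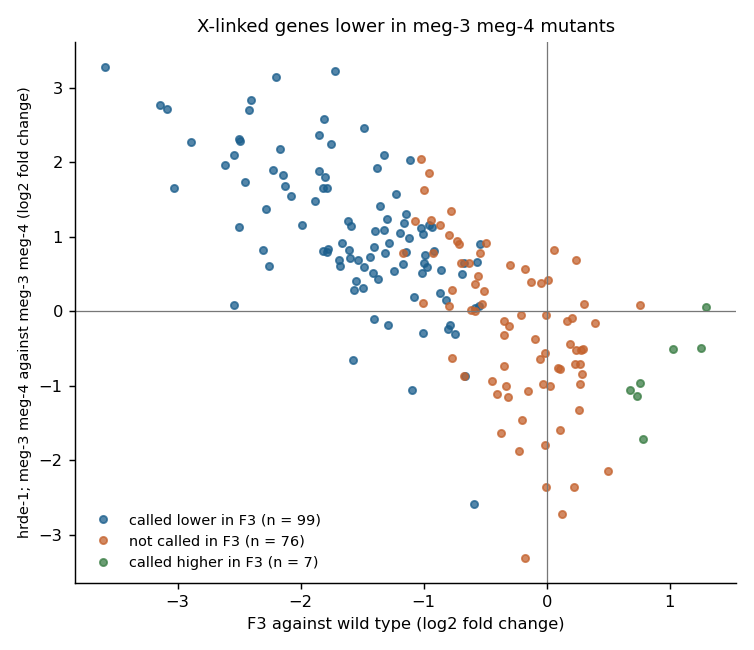
Each of the 182 X-linked genes lower in meg-3 meg-4 mutants (points, coloured by the call at F3), with its log2 fold change at F3 against wild type on the horizontal axis and in triple against meg-3 meg-4 mutants on the vertical axis. Of the 99 called lower at F3, 60 were called higher in triple than in double mutants and 3 lower.

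The X genes with the largest drop in triple against double mutants include F41G4.7, Y81B9A.1, R04E5.9, Y7A5A.1 and glit-1. F41G4.7 (chrX:16834896-16836404, minus strand) had 162.1 and 179.0 normalized counts in triple mutants, against 2711 and 2388 in meg-3 meg-4 mutants, and 1734 and 1592 in wild type. Y81B9A.1 (chrX:9192444-9194382, plus strand) had 4.50 and 8.67 in triple mutants, against 110.6 and 106.1 in meg-3 meg-4 mutants, 330.9 and 254.3 at F3, and 320.7 and 338.7 in wild type. R04E5.9 had 40.5 and 42.6 in triple mutants, against 299.8 and 338.8 in meg-3 meg-4 mutants, and 291.7 and 361.4 in wild type. In the double mutants R04E5.9 was not called against wild type and F41G4.7 was called higher by a narrow margin (limma adjusted p = 0.0499). The log2 change in triple against double mutants was -3.86 ± 0.22 for F41G4.7 and -2.80 ± 0.20 for R04E5.9 (SE, limma adjusted p = 9.78e-11 and 2.26e-09). At the other end, jmjd-3.2 had 635.8 and 633.8 in triple mutants, against 75.2 and 59.9 in meg-3 meg-4 mutants and 250.0 and 216.0 in wild type, so its triple mutants stood above wild type. The gene dgn-1, a dystroglycan gene, had 92.8 and 89.1 in triple mutants, against 8.85 and 10.8 in meg-3 meg-4 mutants, and 85.7 and 81.8 in wild type.

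Some X genes went past wild type in the descendants, up to the 75 called higher at F10. The gene vhl-1 (chrX:11307356-11308518, plus strand), whose product marks the hypoxia factor HIF-1 for destruction, had 8.85 and 19.6 normalized counts in meg-3 meg-4 mutants, 44.5 and 52.9 at F3, 164.0 and 189.7 at F10, 64.0 and 104.0 at F25, and 23.2 and 21.02 in wild type. It was highest at F10 and still above wild type at F25 (log2 change 1.68 ± 0.26 SE, limma adjusted p = 0.00121). The gene pek-1, which encodes the kinase PERK of the unfolded protein response, had 131.2 and 152.7 at F10, 102.2 and 86.2 at F25, and 35.3 and 30.4 in wild type. Its call at F25 was lost without wild-type replicate 2 (limma adjusted p = 0.0517). Also higher at F25 were F28H6.8, F20B6.5 and AC8.4. The call of F20B6.5 was lost without F25 replicate 2 or without wild-type replicate 2. The symbol AC8.4 stands at a pair of near-identical loci, of which 1 was called. That AC8.4 call was lost under 6 of the 14 alternatives run. The gene immt-1, which encodes mitofilin of the mitochondrial inner membrane, had 153.4 and 109.8 at F3, 82.0 and 96.7 at F10, 24.8 and 34.7 at F25, and 24.3 and 32.1 in wild type. It was called higher than wild type in every group between F3 and F10 and in none later, with the steepest fall over the generations (-0.104 ± 0.011 log2 units per generation, SE, limma adjusted p = 2.17e-07). The next steepest falls were those of ipla-2, F54B11.5, F40F4.7 and C36B7.6.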

How the data were processed

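Small RNAs of whole young adults were sequenced in 24 libraries, 12 groups of 2. Per the submitters' processing notes, the authors used cutadapt, Bowtie, featureCounts and DESeq2; no version, genome build, annotation or strand option was stated there. The deposited table holds 1 signal value per feature and library, called the normalized count here. All 386038 values above 0 were whole reads times 1 factor per library within 0.01. The values are reads antisense to the annotated gene: of 28 non-coding features across from a microRNA gene, 26 had the higher value. Of 46726 features, 46364 matched Ensembl (WBcel235) by identifier, for symbols, biotypes and positions.

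Features with 10 or more in at least 2 libraries (8869) entered limma's trend fit (version 3.58.1, R 4.3.3) of log2(normalized count + 5) on all 12 groups, which left 12 residual degrees of freedom, two-sided, Benjamini-Hochberg adjusted at 0.05. Slopes over generation used the 18 descendant libraries. The deposited values are not counts, so edgeR 4.0.16 and DESeq2 1.42.0 on recovered reads were alternatives. In simulated data on 8869 features limma recovered 61% of 2-fold and 99% of 4-fold changes between meg-3 meg-4 and wild type and called 1 unchanged feature, and the slope test recovered 93% and 100%. Python 3.11.15 and pandas 2.3.3 were used for the summaries.

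Named genes are X genes with a mean of at least 50 in the libraries compared, no overlap between the sides and the largest called changes (10 in each direction for meg-3 meg-4 against wild type, 5 for triple against meg-3 meg-4, F25 and the slope), up to 3 called genes of each list, and meg-3, meg-4, sex-1, fox-1, ceh-39, xol-1, sdc-1 and sdc-2. His-24, dpy-27, puf-9, ain-1 and pks-1 were named after their values were seen. Members and lists were chosen with earlier results of these data known. Limits from 3 reads cover counting error only, as PCR copies are not separate molecules.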

Additional observations from a re-analysis of the deposited data

How the results depend on the processing

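X genes were lower more often than matched autosomal genes in meg-3 meg-4 mutants under every setting run. The X medians of meg-3 meg-4 and triple mutants stayed below the matched ones, except without a filter. There the median log2 changes of X and matched genes were all 0. Counts of higher genes moved most. Among X genes higher in meg-3 meg-4 mutants there were 10 with equal library totals, 50 with quantile normalization, 40 with edgeR and 42 with only the groups compared. In triple mutants against wild type, higher genes numbered 7 with a pseudocount of 1, 26 with quantile normalization, 5 with a filter of 50 or more in 2 libraries, 28 with edgeR, 40 with only the groups compared and 7 among the 424 genes overlapping no other. At F3, higher genes numbered 47 with quantile normalization, 54 with edgeR and 48 with only the groups compared, and at F7 30 with equal library totals, 76 with edgeR and 78 with only the groups compared. At F25, genes lower numbered 1 with equal library totals, 1 with quantile normalization, 4 with edgeR and 1 with DESeq2, and genes higher 16 with edgeR and 8 with DESeq2. Triple against meg-3 meg-4 mutants gave 56 lower with equal library totals. Falling slopes numbered 70 with quantile normalization. The 50 filter, which tests fewer genes, left 55 higher in triple against meg-3 meg-4 mutants, 75 lower at F3, 60 lower at F7 and 84 rising. The genes overlapping no other, fewer by construction, gave 116 lower in meg-3 meg-4 mutants, 55 higher in triple against meg-3 meg-4 mutants, 57 lower at F7 and 84 rising.

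The X median less the matched median was -0.34 and -0.30 in meg-3 meg-4 and triple mutants with a pseudocount of 1. With the 50 filter it was -0.81 and -0.81, then -0.13 at F3, -0.00802 at F4, 0.062 at F5, 0.050 at F6 and 0.078 at F10. Matched on the mean of all libraries it was -0.18 and -0.19, then 0.11 at F3, 0.16 at F4, 0.21 at F5, 0.21 at F6, 0.20 at F7, 0.21 at F10, 0.17 at F15 and 0.19 at F20.

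With single libraries left out, meg-3 meg-4 mutants had 139 to 150 lower and 13 to 18 higher, triple against meg-3 meg-4 mutants 68 to 77 lower and 60 to 70 higher, triple mutants against wild type 124 to 136 lower and 7 higher each time, F3 77 to 84 lower and 13 to 20 higher, F7 63 to 71 lower and 22 to 30 higher, and F25 0 to 2 lower and 2 to 7 higher. Slopes gave 23 to 45 falling and 114 to 145 rising. The X median less the matched one ranged from -0.31 to -0.23 in meg-3 meg-4 mutants, -0.28 to -0.24 in triple mutants, -0.035 to 0.079 at F3, 0.020 to 0.095 at F4, 0.064 to 0.20 at F5, 0.090 to 0.16 at F6, 0.11 to 0.14 at F7, 0.10 to 0.16 at F10, 0.098 to 0.15 at F15, 0.10 to 0.15 at F20 and 0.054 to 0.13 at F25.

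For the named gene got-1.2 the log2 change in meg-3 meg-4 mutants was -0.24 with quantile normalization, against 0.44. Where a value moved, the cause was not tested. Replicate numbers were not taken to pair the libraries, for which every pair of groups would have had to exceed 0.1. Same-numbered libraries correlated, in their deviations from the group mean, between -0.054 and 0.41 over 66 pairs of groups, above 0.1 in 25. Of the 36 pairs of descendant groups 21 were above 0.1, with a median of 0.114. Among F3, F5, F6 and F7 the values lay between 0.252 (F3 with F7) and 0.408 (F6 with F7). Whether same-numbered descendants form continuing lines was not tested. With the replicate number as a block 185 X genes were lower in meg-3 meg-4 mutants, and no count above moved by over 1.5 times. A gene without reads can lie up to the level of 3 reads, which for F4 replicate 2 is 15.0 normalized counts and for F10 replicate 1 is 16.4, so losses of weak genes there were not detectable.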

Other observations

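Lost genes lay along the whole X chromosome. In bins of 2 Mb, between 19.7% and 35.4% of X genes were lower in meg-3 meg-4 mutants, the highest share in the first bin, which holds meg-3 and meg-4. Within 0.5 Mb of either gene, 33.3% of 57 X genes were lower in meg-3 meg-4 mutants, against 27.03% of the 603 others. At this and the wider distances below, meg-3 and meg-4 themselves were left out of the near genes and counted among the others. At F3 19 of the 57 (33.3%) were lower, against 94 of 603 (15.6%). Within 1 Mb the F3 shares were 24.04% of 104 against 15.8% of 556, and within 2 Mb 22.1% of 181 against 15.2% of 479. The distances were chosen after the values had been seen. Whether the chromosome segment around the mutated genes bears on this was not tested.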
